A study of Homo sapiens with 6 samples.

Results

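Transcripts of 10 genes grouped as feedback inhibitors of NF-kB signalling, some of which also have activating roles, were compared between slow-cycling cells (SCC) and rapid-cycling cells (RCC) sorted from MDA-MB-231, an established human line of triple-negative breast cancer. The genes were NFKBIA, NFKBIB, NFKBIE, NFKBIZ, TNFAIP3, TNIP1, TNIP2, CYLD, BIRC3 and TRAF1. They were chosen by name, each matched 1 row of the deposited tables, and they are 10 of 58735 rows. All 10 were among the 15881 genes with enough counts to be tested. Both groups were wild-type cells of the same line, stained with the membrane dye PKH26, grown on for 12 days in serum-containing medium and sorted by flow cytometry. SCC were the 1% of cells that kept most dye, which is thinned out at each division. RCC were taken at moderate dye by the protocol text, whereas the sample characteristics call them PKH26lo. Each group had 3 libraries from biological replicates of this 1 cell line. RNA was measured in bulk, so fewer cells making a transcript and less of it per cell cannot be told apart.

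NF-kB is a family of dimeric transcription factors that inhibitor of kB (IkB) proteins hold inactive in the cytoplasm. Signals from receptors such as those for tumour necrosis factor (TNF) and interleukin-1 build ubiquitin chains that activate the IkB kinase, the IkB proteins are degraded and the dimers enter the nucleus. Several genes that NF-kB switches on encode its own inhibitors, among them new IkB proteins and enzymes that take ubiquitin chains apart, so the signal is limited in time. MDA-MB-231 is known for constitutive NF-kB activity.

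The SCC libraries held 19498054 to 27831824 counts each, and the RCC libraries 17655855 to 22746267. SCC replicate 1 stood apart from the other SCC libraries. Its counts gave a chi-square of 24.6 per degree of freedom against SCC replicate 2 and 18.6 against SCC replicate 3, and the value was between 3.17 and 4.08 for every other pair of libraries within a group. The mesenchymal markers VIM, CD44, FN1, AXL, CAV1 and LGALS1 were expressed in all 6 libraries, with a summed level of 1162 to 1262 FPKM (fragments scaled to gene length and library size) in SCC and 1116 to 1163 in RCC. ESR1, PGR and CDH1 were at 0.0698 FPKM or less in every library, but 3 other genes of this list of markers taken to be low or absent were expressed in every library: ERBB2 at 6.88 to 10.2 FPKM, GATA3 at 2.01 to 2.93 and EPCAM at 1.42 to 2.29. The 11 leukocyte markers summed to 0.507 to 1.60 FPKM in SCC and 0.691 to 0.913 in RCC. Mitochondrial genes took 4.45% to 4.75% of counts in SCC and 3.77% to 3.95% in RCC. This share therefore moves with group in all comparisons of SCC with RCC below. Its part in them was not tested.

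The upstream sequences are shown first because many of these genes are known to be switched on by NF-kB. Windows from 250 bases before to 50 bases after a transcript start were taken from RefSeq (GRCh38.p14) for 9 of the 10 genes; NFKBIE was not in that table. A strict form of the kB motif was searched on both strands: GGG and TTTCC with any 2 bases between them. It was selected among several forms after matches had been seen. It was present in windows of 7 of the 9 genes and of 2.33% of all 27305 genes with a window. All 8 matches also met the broader NF-kB consensus, which the same 7 genes and 13.3% of all genes hold. TNIP2 and TRAF1 had no match to either. The windows below are 30 bases on the gene's strand, 5′ to 3′, with the matched bases in capitals. They are shown to set the genes that were higher in SCC (the first 3) beside those that did not pass the test.
NFKBIA window, chr14:35404811-35404840, minus strand: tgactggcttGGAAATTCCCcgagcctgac
NFKBIZ window, chr3:101827757-101827786, plus strand: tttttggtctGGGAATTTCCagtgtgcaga
TNFAIP3 window, chr6:137867188-137867217, plus strand: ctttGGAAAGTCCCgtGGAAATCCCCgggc
NFKBIB window, chr19:38899931-38899960, plus strand: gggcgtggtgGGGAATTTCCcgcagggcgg
TNIP1 window, chr5:151081057-151081086, minus strand: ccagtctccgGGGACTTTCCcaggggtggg
CYLD window, chr16:50741887-50741916, plus strand: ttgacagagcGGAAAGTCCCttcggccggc
BIRC3 window, chr11:102317275-102317304, plus strand: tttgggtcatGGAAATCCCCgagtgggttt

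In NFKBIA the match began 81 bases before the transcript start, and in TNFAIP3 the 2 matches lay between 67 and 46 bases before it. NFKBIZ has 2 transcript starts in RefSeq. The match shown lay 223 to 214 bases before the upstream one, and the window of the other start held only a match to the broader consensus. Matches in NFKBIB, TNIP1, CYLD and BIRC3 began 28, 42, 189 and 199 bases before a start. The motif was therefore held by 3 genes that were called higher in SCC and by 4 that were not. The AP-1 site TGANTCA, the binding motif of the factors in the series title, was found in the windows of NFKBIB alone among the 9 genes, and of 9.37% of all genes. The related site TGACGTCA was found in CYLD alone and in 2.25% of all genes. For NFKBIA and NFKBIZ, both called higher in SCC, the 250 bases before the start are given in full, with the strict kB match in capitals.
NFKBIA upstream, chr14:35404750-35404999, minus strand: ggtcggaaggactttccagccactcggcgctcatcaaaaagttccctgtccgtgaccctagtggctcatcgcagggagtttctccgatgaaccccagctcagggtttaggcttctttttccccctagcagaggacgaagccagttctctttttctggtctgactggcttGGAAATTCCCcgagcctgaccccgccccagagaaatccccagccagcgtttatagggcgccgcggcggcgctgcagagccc
NFKBIZ upstream, chr3:101827740-101827989, plus strand: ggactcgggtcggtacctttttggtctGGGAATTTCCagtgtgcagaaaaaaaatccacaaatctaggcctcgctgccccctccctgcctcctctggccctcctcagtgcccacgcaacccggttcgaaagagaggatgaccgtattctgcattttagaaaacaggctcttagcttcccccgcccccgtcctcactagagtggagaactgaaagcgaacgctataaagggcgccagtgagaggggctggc

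TNFAIP3, NFKBIA and NFKBIZ, 3 of the 10 genes, were higher in SCC (edgeR, quasi-likelihood, Benjamini-Hochberg adjusted p under 0.05). Of all tested genes, 2.07% were called by this rule, 1.69% higher and 0.378% lower. With edgeR and with DESeq2, 0 of the 10 genes were lower. At an unadjusted p under 0.05, edgeR put 6 of the 10 higher and 0 lower, against 11.4% and 8.27% of all tested genes. The median log2 fold change was 0.24 over the 10 genes and 0.00 over all tested genes, and 9 of the 10 fitted values were above 0. In 6 genes every SCC library lay above every RCC library, against 14.4% of all tested genes, and in 0 genes the reverse held, against 13.4%. Without SCC replicate 1, 5 genes were higher, with NFKBIE and TNIP1 added, and 3.93% of all genes tested in that fit were higher. The 10 genes were chosen with earlier results of these libraries known, so their counts are no independent evidence of a direction.

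**Figure D1:**
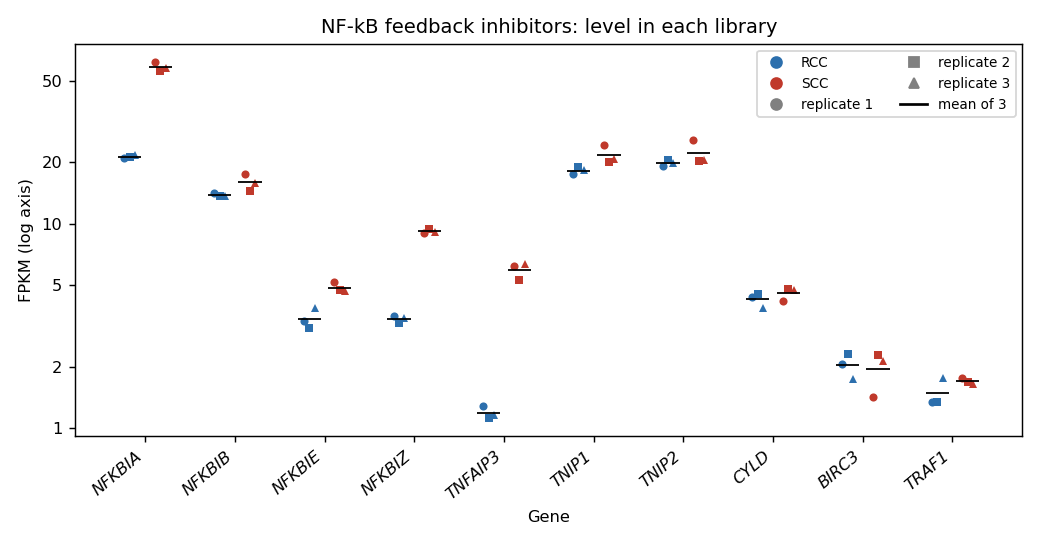
Level of each of the 10 genes in each library, in FPKM on a log axis; blue is RCC, red is SCC, the marker shape gives the replicate and the black bar the mean of 3. NFKBIA, NFKBIZ and TNFAIP3 show wide gaps between the groups, whereas TNIP2, CYLD, BIRC3 and TRAF1 overlap.

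NFKBIA (ENSG00000100906; GRCh38 chromosome 14, 35401511 to 35404749, minus strand) encodes IkB-alpha, the inhibitor that is degraded and remade fastest after a signal. Its level was 62.2, 56.1 and 58.0 FPKM in SCC replicates 1 to 3 and 21.0, 21.3 and 21.8 FPKM in RCC replicates 1 to 3. All SCC libraries lay above all RCC libraries, and the lowest SCC value was far above the highest RCC value. The means were 58.8 ± 3.08 and 21.4 ± 0.43 FPKM (SD, n = 3). The fitted difference was 2.76-fold, a log2 fold change of 1.47 with a standard error of 0.07 (edgeR, adjusted p = 1.5e-06).

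NFKBIB (ENSG00000104825; chromosome 19, 38899700 to 38908893, plus strand) encodes IkB-beta, which keeps dimers bound for longer. It was at 17.5, 14.6 and 15.9 FPKM in SCC and 14.2, 13.7 and 13.7 in RCC. The groups did not overlap, but the gap between them was small: the lowest SCC library was 14.6 and the highest RCC library 14.2 FPKM. The log2 fold change was 0.21 (95% interval 0.01 to 0.41; edgeR, adjusted p = 0.23). Its exons share 40 bases with SIRT2 on the opposite strand, so a few reads could belong to either gene if strand was not used in counting.

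NFKBIE (ENSG00000146232; chromosome 6, 44258166 to 44265788, minus strand) encodes IkB-epsilon, whose resynthesis is known to lag behind that of IkB-alpha. It was at 5.22, 4.75 and 4.67 FPKM in SCC and 3.36, 3.09 and 3.86 in RCC. No SCC library fell within the RCC range. The log2 fold change of 0.52 (95% interval 0.24 to 0.80) did not pass the threshold (edgeR, adjusted p = 0.065). It passed without SCC replicate 1 (0.46, adjusted p = 0.031) and when genes of low count were kept in the test (0.53, adjusted p = 0.012), and in none of the other 15 alternatives, where the adjusted p reached 0.27.

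The 3 classical IkB genes together were at 79.6 ± 4.79 FPKM in SCC and 38.7 ± 0.63 in RCC (SD, n = 3). NFKBIA supplied 73.2%, 74.4% and 73.9% of that sum in SCC replicates 1 to 3 and 54.4%, 56.0% and 55.4% in RCC replicates 1 to 3. NFKBIB supplied 20.6%, 19.3% and 20.2% in SCC and 36.8%, 35.9% and 34.8% in RCC, and NFKBIE the remainder. NFKBIA thus held a larger share, and NFKBIB a smaller one, in each SCC library than in any RCC library.

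**Figure D2:**
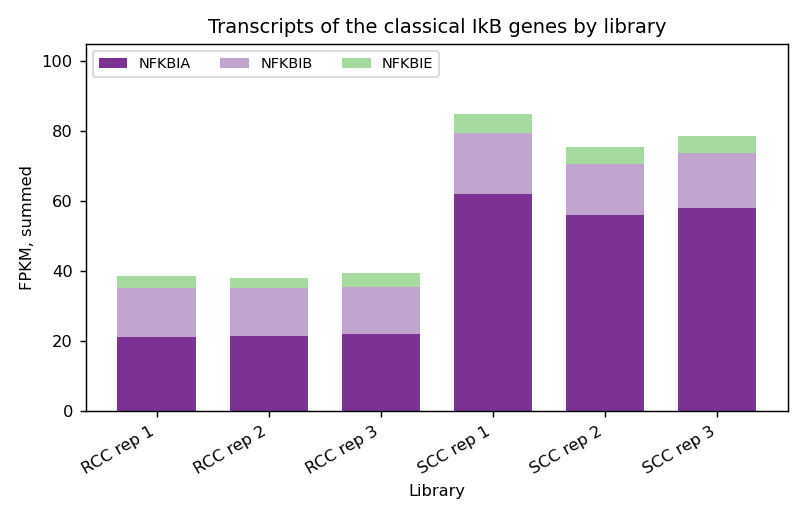
Summed FPKM of NFKBIA, NFKBIB and NFKBIE in each library, stacked from 0. The RCC bars stand between 38.1 and 39.4 FPKM and the SCC bars between 75.5 and 84.9, and most of the added height is NFKBIA.

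The ratio of NFKBIA to NFKBIB within a library does not depend on library scaling and tests the difference between these genes directly. It was not corrected for GC content, which is 53.1% for NFKBIA and 60.5% for NFKBIB and with which SCC replicate 1 deviated. This ratio was 3.56, 3.86 and 3.66 in SCC and 1.48, 1.56 and 1.60 in RCC. The mean log2 ratio was 1.26 higher in SCC. An exact permutation test over the 6 libraries gave p = 0.1, two-sided, the smallest that 3 against 3 allows, and 0.1 after Benjamini-Hochberg adjustment over the 3 ratios tested. NFKBIA was also set against RELA, the NF-kB subunit that IkB-alpha holds in the cytoplasm. That ratio was 2.44, 2.84 and 2.81 in SCC and 1.24, 1.21 and 1.21 in RCC, a mean log2 difference of 1.14 with the same exact permutation p of 0.1.

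NFKBIZ (ENSG00000144802; chromosome 3, 101827991 to 101861022, plus strand) encodes IkB-zeta, an atypical nuclear member of the family that works mainly as a cofactor for a subset of NF-kB targets, IL6 among them, and can also repress. It was at 9.07, 9.49 and 9.10 FPKM in SCC and 3.54, 3.28 and 3.46 in RCC. The libraries of each group lay close together and the groups were well apart. The fitted difference was 2.70-fold, a log2 fold change of 1.43 with a standard error of 0.08 (edgeR, adjusted p = 3.0e-06). No other gene overlaps NFKBIA, NFKBIE or NFKBIZ in the GENCODE 29 annotation.

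TNFAIP3 (ENSG00000118503; chromosome 6, 137867188 to 137883312, plus strand) encodes A20, an enzyme that edits ubiquitin chains on signalling proteins such as RIPK1 and so shuts the signal off. It was at 6.19, 5.29 and 6.33 FPKM in SCC and 1.28, 1.12 and 1.16 in RCC. The groups were far apart, and the ratio of their means was larger than for the other 9 genes. The fitted difference was 5.02-fold, a log2 fold change of 2.33 with a standard error of 0.12 (edgeR, adjusted p = 1.6e-06). On the log2(FPKM + 1) scale, which compresses low values, the difference was 1.66. An antisense gene, AL357060.1, shares 95 exonic bases with TNFAIP3, but it held 97 counts in all libraries together against 2430 for TNFAIP3.

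TNIP1 and TNIP2 encode the adaptor proteins ABIN-1 and ABIN-2, which bring A20 to its targets. TNIP1 (ENSG00000145901; chromosome 5, 151029945 to 151093577, minus strand) was at 24.5, 20.2 and 20.9 FPKM in SCC and 17.5, 18.9 and 18.3 in RCC. The groups did not overlap. The log2 fold change of 0.27 (95% interval 0.08 to 0.45) did not pass the threshold (edgeR, adjusted p = 0.13). It was 0.17 without SCC replicate 1, where it passed (adjusted p = 0.045), and it also passed when genes of low count were kept in the test (adjusted p = 0.042). It was 0.11 when GC content entered the fit as an offset.

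TNIP2 (ENSG00000168884; chromosome 4, 2741648 to 2756376, minus strand) was at 25.7, 20.2 and 20.6 FPKM in SCC and 19.3, 20.6 and 19.8 in RCC. SCC replicate 1 was high and the other 2 SCC libraries lay within or beside the RCC range. The log2 fold change was 0.17 (95% interval -0.05 to 0.39; edgeR, adjusted p = 0.37). With the GC offset it was -0.04, and 0.04 when SCC replicate 1 was left out.

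CYLD (ENSG00000083799; chromosome 16, 50742050 to 50801935, plus strand) encodes another deubiquitinase that restrains the pathway. It was at 4.19, 4.78 and 4.73 FPKM in SCC and 4.40, 4.53 and 3.89 in RCC. The groups overlapped, with a log2 fold change of 0.10 (95% interval -0.09 to 0.29; edgeR, adjusted p = 0.52). The ratio of TNFAIP3 to CYLD was 1.48, 1.11 and 1.34 in SCC and 0.291, 0.247 and 0.298 in RCC, so that TNFAIP3 lay above CYLD per length in each SCC library and below it in each RCC library. The mean log2 ratio differed by 2.22 (exact permutation p = 0.1, two-sided). CYLD was called in no alternative.

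BIRC3 and TRAF1 act at the receptor. BIRC3 (ENSG00000023445; chromosome 11, 102317450 to 102339403, plus strand) encodes cIAP2, a ubiquitin ligase that promotes the canonical pathway and holds down the alternative one by removing its kinase. It was at 1.41, 2.29 and 2.14 FPKM in SCC and 2.06, 2.30 and 1.74 in RCC. The groups overlapped, with SCC replicate 1 the lowest of all 6 libraries. BIRC3 had a log2 fold change of -0.07 (95% interval -0.45 to 0.31; edgeR, adjusted p = 0.85). Its sign turned with the GC offset (0.09), without RCC replicate 2 (0.02) and without SCC replicate 1 (0.12), and it was not called in any alternative.

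TRAF1 (ENSG00000056558; chromosome 9, 120902393 to 120929173, minus strand) encodes an adaptor that binds BIRC2, BIRC3 and TRAF2 and is known as an NF-kB target. It was at 1.77, 1.68 and 1.64 FPKM in SCC and 1.34, 1.35 and 1.76 in RCC. RCC replicate 3 reached into the SCC range. For TRAF1 the log2 fold change was 0.21 (95% interval -0.09 to 0.51; edgeR, adjusted p = 0.41), and no alternative called it.

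**Figure D3:**
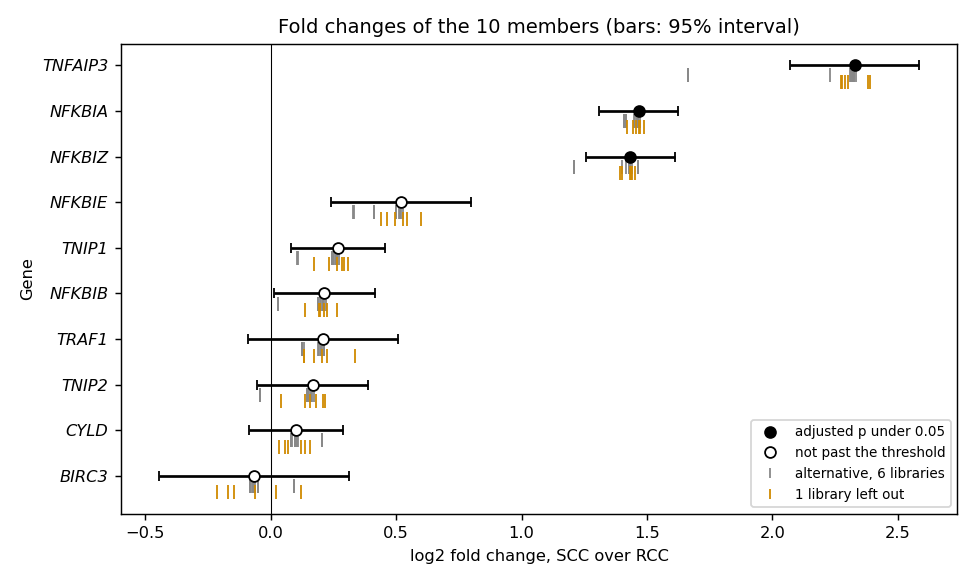
Log2 fold change of SCC over RCC for each gene from the counts (circle, filled where the adjusted p is under 0.05) with its 95% interval. Grey ticks are the 11 alternatives on all 6 libraries and orange ticks the 6 fits with 1 library left out. TNFAIP3, NFKBIA and NFKBIZ stay at 1.21 or above throughout, and the ticks of TNIP2 and BIRC3 cross 0.

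The order of the levels per length differed between the groups. In RCC it ran from NFKBIA (21.4 FPKM) through TNIP2, TNIP1, NFKBIB, CYLD, NFKBIE, NFKBIZ, BIRC3 and TRAF1 to TNFAIP3 (1.19 FPKM). NFKBIE and NFKBIZ, at 3.43 FPKM each, were not separable by their libraries, nor were BIRC3 and TRAF1. In SCC, NFKBIZ was the fifth and TNFAIP3 the sixth, ahead of NFKBIE and CYLD. Neighbours with overlapping ranges in SCC were TNIP2 and TNIP1, NFKBIE and CYLD, and BIRC3 and TRAF1.

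How SCC replicate 1 stood to the other SCC libraries followed the GC content of the gene. BIRC3, with a GC content of 34.8%, was lower there by 0.63 on the log2 scale, and CYLD (39.7%) had a difference of -0.16. NFKBIB, NFKBIE, TNIP1 and TNIP2, at 59.2% to 61.8% GC, were 0.16 to 0.35 higher. Over all tested genes the median difference was -0.25 in the decile of lowest GC content and 0.42 in that of highest. The difference of BIRC3 was thus larger than the median for genes of low GC content. NFKBIA, NFKBIZ and TNFAIP3 had intermediate GC contents of 53.1%, 46.2% and 49.5%, and their log2 fold changes with the GC offset were 1.41, 1.46 and 2.32.

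**Figure D4:**
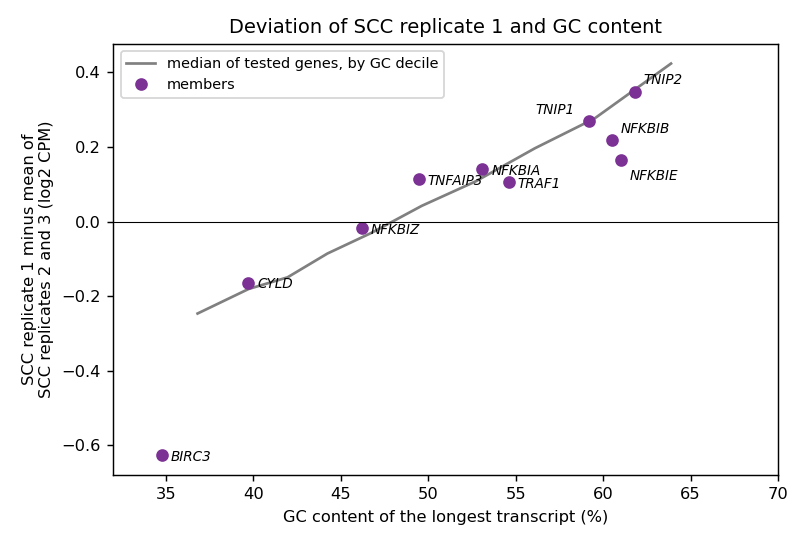
Log2 CPM (counts scaled to library size) of SCC replicate 1 minus the mean of SCC replicates 2 and 3 against the GC content of the gene's longest transcript, for the 10 genes (points) and as medians of the tested genes by GC decile (line). The line runs from -0.25 to 0.42, and BIRC3 lies lowest at -0.63.

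By the root mean square difference of log2 CPM over the 6 libraries, each gene taken relative to its RCC mean, the gene closest to NFKBIA among 10912 genes at 5 CPM or more was NFKBIZ (0.08). It was followed by MIR22HG (0.09), CST1 (0.09), SNAI1 (0.12) and TFF3 (0.13). The genes closest to TNFAIP3 were CSRNP1 (0.08), CYP1B1 (0.13), NR4A2 (0.23), HES1 (0.26) and IRX5 (0.35). The measure is dominated by the size of the difference between groups, and these genes had log2 fold changes of 1.35 to 1.45 and 1.96 to 2.29 respectively.

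The rest of the pathway was read from 5 lists of 109 genes, 97 of them tested. Of 15 subunit and kinase genes, 1 was higher and 0 lower by edgeR, with a median log2 fold change of 0.02. By unadjusted p under 0.05, 4 were higher and 1 lower, and DESeq2 called 2 higher. The edgeR shares over all 15881 genes came to 1.69% and 0.378% with adjustment, and to 11.4% and 8.27% without it. The called gene was RELB, which encodes the transactivating subunit of the alternative pathway. It was at 5.18, 3.39 and 3.93 FPKM in SCC and 2.24, 2.39 and 2.20 in RCC (log2 fold change 0.88, adjusted p = 0.020). RELB was called in 11 of 17 alternatives. It was not called without RCC replicate 1, 2 or 3 (adjusted p 0.11, 0.085 and 0.11), nor by limma on log2(FPKM + 1), on log2(FPKM + 0.1) or on unfiltered log2(FPKM + 1) (adjusted p 0.080, 0.072 and 0.27). RELA was at 22.0 ± 3.08 against 17.5 ± 0.61 FPKM (SD, n = 3; log2 fold change 0.33, adjusted p = 0.11). NFKB1, which encodes the partner of RELA and was chosen after its values were seen, was at 11.5 FPKM in both groups (log2 fold change 0.00, 95% interval -0.15 to 0.15). NFKB2, also chosen after its values were seen, was at 21.2 ± 1.61 against 16.4 ± 1.57 FPKM (SD, n = 3), without overlap. Its log2 fold change of 0.38 (95% interval 0.18 to 0.58) did not pass the threshold (edgeR, adjusted p = 0.062).

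Among 27 tested receptors and adaptors, edgeR called 0 in either direction, against 1.69% higher and 0.378% lower of all tested genes. DESeq2 called 1 higher. By unadjusted p under 0.05, 8 were higher and 2 lower, against 11.4% and 8.27% of all tested genes. The smallest p belonged to TICAM1, the adaptor of TLR3 (log2 fold change 0.47, edgeR adjusted p = 0.079), which 5 of 17 alternatives called. Among 13 genes of the ubiquitin machinery edgeR and DESeq2 called 0. By unadjusted p under 0.05, 1 of these genes was higher and 1 lower, against the same 11.4% and 8.27%. XIAP, an inhibitor of apoptosis, had the smallest p there (log2 fold change -0.23, adjusted p = 0.12), and without SCC replicate 1 it was called lower (-0.25, adjusted p = 0.0071). Median log2 fold changes of these lists were 0.04 and -0.03.

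Of 19 other negative regulators tested, 1 was higher and 0 lower by edgeR, against 1.69% and 0.378% of all tested genes. At an unadjusted p under 0.05, 4 were higher and 0 lower, against 11.4% and 8.27%. DESeq2 called 2 higher and 0 lower, and the median log2 fold change of the list was 0.08. The gene called by edgeR was ZC3H12A, which encodes regnase-1, an endonuclease that degrades inflammatory transcripts. Its mean was 19.9 ± 1.76 CPM (counts scaled to library size) in SCC against 7.84 ± 1.40 in RCC (SD, n = 3), and the groups did not overlap. The log2 fold change of 1.35 had a standard error of 0.14 (edgeR, adjusted p = 4.0e-04), and it was called in all 17 alternatives.

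Of 23 other NF-kB target genes tested, 9 were higher and 0 lower by edgeR and by DESeq2, and at an unadjusted p under 0.05 14 were higher and 0 lower. The median log2 fold change was 0.68. Over all 15881 genes, edgeR put 1.69% on the higher side and 0.378% on the lower side. With p left unadjusted, these background shares came to 11.4% and 8.27%. Like the 10 genes, this list of targets and the other lists were drawn up with earlier results known, and their counts carry the same limit. The 8 with the smallest p were the chemokines CXCL2 (3.38) and CXCL8 (2.13), the cytokines IL6 (1.66) and IL32 (1.55), the adhesion molecule ICAM1 (1.51), the prostaglandin synthase PTGS2 (1.43), the transcription factor IRF1 (0.93) and the stress gene IER3 (0.74), given with their log2 fold changes. Their adjusted p ran from 1.5e-06 for CXCL2 to 0.010 for IL6 (edgeR). Many are expressed at low levels: the mean of IL6 was 2.91 ± 0.32 CPM for SCC against 0.926 ± 0.264 for RCC (SD, n = 3). With RCC replicate 1, 2 or 3 left out, 6 targets were called higher each time, against 9 with all libraries. Among the 8 named, IL6 (edgeR, adjusted p = 0.092) and IRF1 (0.061) were not called without RCC replicate 1. Without RCC replicate 2, IL6 (0.068) and IER3 (0.067) were not, and without RCC replicate 3, IER3 (0.072) and IRF1 (0.055) were not. Of the 17 alternatives, 12 called IER3, 12 IRF1, 13 IL6 and 15 IL32. CXCL8, PTGS2 and ICAM1 were called in 16 each and CXCL2 in 17. With limma, 7 targets were higher on log2(FPKM + 1), 5 on log2(FPKM + 0.1) and 1 on unfiltered log2(FPKM + 1). Targets that were not called differed in size, and those given here were named after their values were seen. SOD2, CCL2 and PLAU had log2 fold changes of 0.03, 0.09 and 0.09. IL1B, CXCL1 and CSF2 had 1.62, 1.17 and 0.68 (edgeR, adjusted p 0.093, 0.11 and 0.057), without overlap of the groups. All 23 fitted values of the tested targets were above 0, against 8021 of 15881 over all tested genes.

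**Figure D5:**
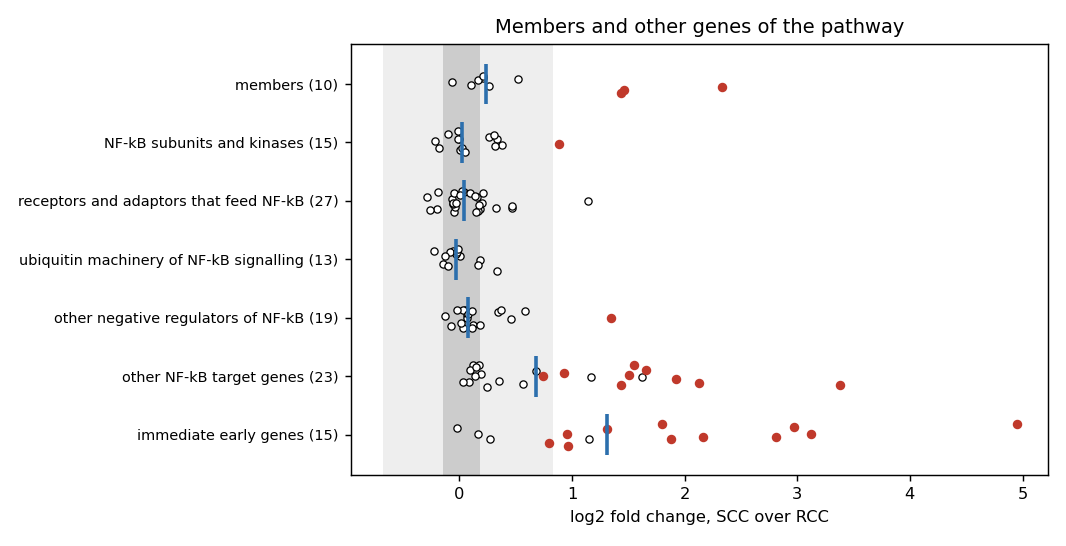
Log2 fold change of SCC over RCC for the 10 genes (top row), the 5 pathway lists and immediate early genes, with the number tested in brackets. Red points passed an adjusted p of 0.05, blue bars are list medians, and the grey bands hold the middle 50% and 95% of all tested genes; medians run from -0.03 for the ubiquitin machinery to 1.31 for immediate early genes.

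Immediate early genes, which respond to growth factors, stress and cell handling, moved in the same libraries. Of 15 genes, 11 were higher and 0 lower by edgeR, against 1.69% and 0.378% of all tested genes. At an unadjusted p under 0.05, 14 were higher and 0 lower, against 11.4% and 8.27%. DESeq2 called 9 higher and 0 lower, and the median log2 fold change of the 15 genes was 1.31. Among them FOS, FOSB, ATF3 and EGR1 had log2 fold changes of 3.12, 4.95, 2.81 and 1.88, and JUNB, ZFP36, DUSP1 and IER2 of 1.80, 1.31, 0.97 and 0.95, with adjusted p from 4.1e-08 for FOS to 7.5e-04 for ZFP36 (edgeR). Their part in the differences of the NF-kB inhibitors was not tested.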

How the data were processed

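RNA-seq of 3 SCC and 3 RCC libraries was used. Reads were processed with HISAT2 2.0.5 and featureCounts 1.5.0-p3, per the submitters' processing notes; the genome build, the strand setting and read filters were not given in the sources used here. The authors deposited a table of whole-number counts and of FPKM values by gene. Each FPKM value of a gene with counts was within 0.1% of the count divided by gene length and by 1 constant per library, 0.983 to 1.02 times the summed count. All 58735 gene IDs and positions matched GENCODE 29 (GRCh38), and 27 names that had become dates were restored by ID. SOD2 had 2 rows, and the one with more counts was used. No column of another sample was present.

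Counts were filtered with filterByExpr (minimum count 10), scaled by TMM and tested with edgeR 4.0.16 in R 4.3.3 (glmQLFit on group alone, two-sided F test, Benjamini-Hochberg over all 15881 tested genes, called under 0.05). Standard errors are the log2 fold change over the square root of F, and 95% intervals use the fit's degrees of freedom. CPM are on TMM-scaled library sizes. P-values measure the spread between replicates that the series calls biological. Ratios of deposited FPKM were compared by exact permutation. GC content is that of the longest GENCODE transcript. Wilson 95% intervals of library shares, computed for mitochondrial counts, were within 0.01 percentage points of each share and cover counting error only, as reads carry no molecular identifiers.

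Alternatives were DESeq2 1.42.0, RLE and upper-quartile scaling, filters, limma 3.58.1 (trend fit) on log2(FPKM + 0.1) or log2(FPKM + 1), for genes at 1 FPKM in 3 libraries or without that filter, the replicate number as a block, a GC offset (lowess span 0.3) and each library left out. The scripts were tested on simulated data. The members and lists were chosen with earlier results of these data known. Named genes were the 10 members, called genes of each list (at most 8, by p; otherwise the gene of smallest p), the 5 closest profiles to NFKBIA and TNFAIP3, and genes stated as chosen later.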

Additional observations from a re-analysis of the deposited data

How the results depend on the processing

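NFKBIA, NFKBIZ and TNFAIP3 were called higher in all 17 alternatives, with log2 fold changes of 1.41 to 1.49, 1.21 to 1.46 and 1.66 to 2.39. Of the 10 members, 3 were higher in the reported fit and 5 when genes of low count were kept. Of all genes tested in these 2 fits, 1.69% and 2.65% were higher. With a library left out, 3 to 5 members were higher (5 without SCC replicate 1), against 0.602% to 3.93% of all genes tested there. No member was lower in any fit. The sign of TNIP2 turned with the GC offset (-0.043) and with the block plus GC offset (-0.042). The sign of BIRC3 turned with these too (0.091 and 0.090), and its log2 fold change ranged from -0.21 to 0.12 with a library left out. The 3 FPKM ratios kept their direction in every alternative run for them, none of which used a GC offset.

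Over all tested genes, 268 were higher and 60 lower. Keeping genes of low count gave 995 and 315, limma on log2(FPKM + 1) 130 and 36, on log2(FPKM + 0.1) 117 and 34, and on log2(FPKM + 1) without a filter 48 and 1. DESeq2 gave 120 lower genes. The GC offset gave 523 and 245 (68.1% higher, against 81.7%). With a library left out, the counts ranged from 99 to 642 higher and from 8 to 343 lower. In the 5 pathway lists together, 11 of 97 tested genes were higher and 0 lower, against 1.69% and 0.378% of all tested genes. The higher count was 22 with genes of low count kept, 6 with log2(FPKM + 0.1), 2 with unfiltered log2(FPKM + 1), and 7 to 18 with a library left out. Of all genes tested in those fits, 2.65%, 0.938%, 0.128% and 0.602% to 3.93% were higher, in the same order. The lower count was 0 to 1 with a library left out, the 1 being XIAP without SCC replicate 1. The cause was not tested.

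The replicate numbers are not stated to pair the libraries and were not taken to pair them. Over all tested genes, same-numbered libraries did not deviate together (correlations of -0.01, 0.02 and -0.08). This does not exclude pairing, as an effect on fewer genes could be missed. With the replicate block, 350 genes were higher and 106 lower, and with the block plus GC offset 621 and 432 (59.0% higher). No member changed its side of the threshold under the block, and TICAM1 was then called higher. NFKBIE, BIRC3 and TRAF1 rest on 166 to 369 counts per library, which limits how small a difference could be seen, and TNFAIP3 on 856 or fewer.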
